A study of Mus musculus with 6 samples.

Results

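Macrophages of the mouse fetal gonad were followed at embryonic day E15.5. They came from testes of control XY embryos, gonads of XY embryos lacking both *Amh* and *Inhbb* (dKO XY) and ovaries of control XX embryos. The labels call the dKO XY gonads testes, and the study's paper describes them as ovotestes at this stage. A cell was kept as a macrophage when it held at least 10 UMIs (unique molecular identifiers, each marking an mRNA molecule) of the complement genes *C1qa*, *C1qb* and *C1qc* together, at least 1 UMI of *Tyrobp* and at least 1 UMI of *Fcer1g*. The members were thus chosen by the measured UMIs of these 5 genes. This rule found 321 macrophages among 39350 cells, where a cell had over 2500 genes but under 9000, with mitochondrial UMIs below 25% and *Hbb* UMIs below 20%. There were 98 and 70 in the libraries of dKO XY, 46 and 53 in those of control XY and 21 and 33 in those of control XX.

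Tissue macrophages engulf dying cells, recycle iron and lipid, and signal to their neighbours through chemokines and growth factors. In the embryo they arise from yolk sac progenitors and from fetal liver monocytes and settle in each organ before birth, and in the fetal testis they are known for their part in vascular patterning and in clearing misplaced cells. C1q, the recognition subunit of the classical complement pathway, is made by macrophages themselves and coats debris for uptake, while *Tyrobp* (DAP12) and *Fcer1g* encode the adaptor chains through which receptors such as TREM2 and the Fc receptors signal. AMH and activin B, the dimer of the *Inhbb* product, are hormones of the TGF-β family that Sertoli cells secrete in the fetal testis.

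Each group held 2 libraries of pooled gonads. Control XY and control XX embryos were Amh+/+; Inhbb+/+, and dKO XY embryos were Amh-/-; Inhbb-/-, with both genes disrupted in the germ line. In all 3 groups the gonads were dissociated with Dispase II, a collagenase and DNase I, and the cell suspensions were frozen, kept in liquid nitrogen and thawed before capture on the 10x Genomics platform. The labels do not say which libraries were made together. The p-values of genes compared between groups within macrophages measure the spread between the 2 libraries of a group, which may be technical in part.

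The sex and genotype labels were read first. *Xist* lay at 1190.2 and 997 CPM in control XX macrophages, where CPM scales the UMIs of a gene to the summed UMIs of the macrophages of its library, against 10.4 and 0 CPM in dKO XY and none in control XY, and the 4 Y-linked genes examined had no UMI in control XX macrophages. *Amh* was read in the other cells, where it lay at 103 and 175 CPM in control XY but 9.04 and 11.2 CPM in dKO XY and 0.827 and 0.484 CPM in control XX. The labels do not say which part of either gene was deleted, so transcripts outside that part may still be counted. *Inhbb* was hardly separated in the other cells and does not check the genotype, with 19.4 and 31.4 CPM in control XY, 11.8 and 17.9 CPM in dKO XY and 24.6 and 8.30 CPM in control XX. No barcode of a macrophage occurred among the macrophages of another library, and between 4 and 25 cell barcodes were shared by a pair of libraries.

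The macrophages of a library held between 505788 and 2694518 UMIs, and the median macrophage between 21325 and 23973 UMIs. A pair of libraries stood apart before any comparison. In dKO XY 2, the early response genes were low in macrophages, with *Fos* at 1245 CPM against 2492 to 3751 CPM in the other 5 libraries, and *Fos* was low in its other cells as well, at 670.4 CPM. Control XX 1 had the fewest macrophages, and haemoglobin and other erythroid genes reached 20016 CPM there, where a single cell had 27.7% erythroid UMIs. All 21 of its macrophages were among the 8% of its cells with the highest doublet scores. In the other 5 libraries the erythroid sum lay between 119 and 3047 CPM.

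The genes of the rule describe how the cells were found and carry no test. *C1qb*, on chromosome 4 from 136880129 to 136886187 on the minus strand of GRCm38, *C1qc*, from 136889804 to 136893065, and *C1qa*, from 136895917 to 136898803, lie next to each other in 1 cluster. The median macrophage of a library held between 169 and 248 C1q UMIs, far above the limit of 10. Just inside the limit, with 10 to 14 C1q UMIs, were 2 and 1 cells of the dKO XY libraries, 4 and 3 of the control XY libraries and none of control XX. Just outside, with 5 to 9 C1q UMIs and both adaptors, were 9 and 1 cells of the dKO XY libraries, 3 and 3 of control XY and 0 and 1 of control XX. A larger set had both adaptors and no C1q UMI at all, with 91 and 29 cells of dKO XY, 99 and 61 of control XY and 7 and 17 of control XX, and these cells are not described further.

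The promoter of *C1qc* shows the sequence at the start of a gene of the rule (RefSeq, GRCm38.p6, chr4:136892865-136893164, minus strand, 250 bases before the start of the gene and 50 after it, where RefSeq's start lies inside the gene as GENCODE draws it), with a match to the letters GAGGAAGT of PU.1, the lineage factor of myeloid cells encoded by *Spi1*, in capitals on the opposite strand.
*C1qc*: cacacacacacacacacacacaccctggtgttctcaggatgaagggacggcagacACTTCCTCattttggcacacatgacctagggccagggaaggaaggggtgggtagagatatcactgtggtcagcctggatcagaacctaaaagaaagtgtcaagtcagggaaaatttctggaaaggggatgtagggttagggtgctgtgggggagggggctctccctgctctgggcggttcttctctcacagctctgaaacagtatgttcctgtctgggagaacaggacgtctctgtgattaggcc
These letters, searched on both strands, occurred in 3.20% of 32851 promoters of the same length. The promoters found for *C1qb* and *Fcer1g*, also genes of the rule, held no match to them. A match describes the letters and not a bound site.

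The macrophage label held against markers the rule did not use. *Csf1r*, the receptor for the growth factors CSF1 and IL-34 on which tissue macrophages depend, lay at 708 to 1252 CPM in the macrophages of the 6 libraries and at 0.40 to 1.99 CPM in the other cells. *Adgre1*, which encodes the F4/80 antigen, lay at 207 to 397 CPM against at most 0.678 CPM in other cells, and the fractalkine receptor gene *Cx3cr1* at 707 to 1263 CPM against at most 2.75 CPM. All 16 identity genes had UMIs in the macrophages of every library, and their sum was between 7746 and 11503 CPM. Some genes of tissue-resident macrophages were abundant. They included the mannose receptor gene *Mrc1* (556 to 797 CPM), the lipid receptor gene *Trem2* (488 to 699 CPM) and the platelet factor 4 gene *Pf4* (829 to 1415 CPM). The Fc receptor-like gene *Fcrls*, associated with microglia, lay at 672 to 869 CPM.

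Other markers of resident macrophages were low or absent. *Lyve1*, a hyaluronan receptor of perivascular macrophages, lay at 6.08 to 62.9 CPM, *Timd4*, a phosphatidylserine receptor, at 0 to 20.7 CPM and the haemoglobin scavenger receptor gene *Cd163* at 0 to 2.97 CPM. *Cd209f* and *Sall1*, a transcription factor of microglia, had no UMI in any of the 321 cells, although other genes shared with microglia were present, with *P2ry12* at 61.6 to 117 CPM and *Gpr34* at 87.9 to 209.6 CPM. The class II antigen presentation genes *H2-Aa*, *H2-Ab1* and *H2-Eb1* ranged from 0 to 4.45 CPM, and their partner chain *Cd74* from 20.8 to 42.2 CPM. Of the granulocyte, mast cell and lymphocyte genes only *Cd79b* exceeded 20 CPM, at 50.3 to 83.0 CPM. *Cd3e*, *Chil3* and *Cd177*, genes of T cells, of monocytes and of neutrophils, were at 0. Monocyte genes as a list were present, with 2 of 10 at 0 in macrophages. Their sum lay at 94.9 to 596 CPM in macrophages and was above that of the other cells in every library.

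**Figure D1:**
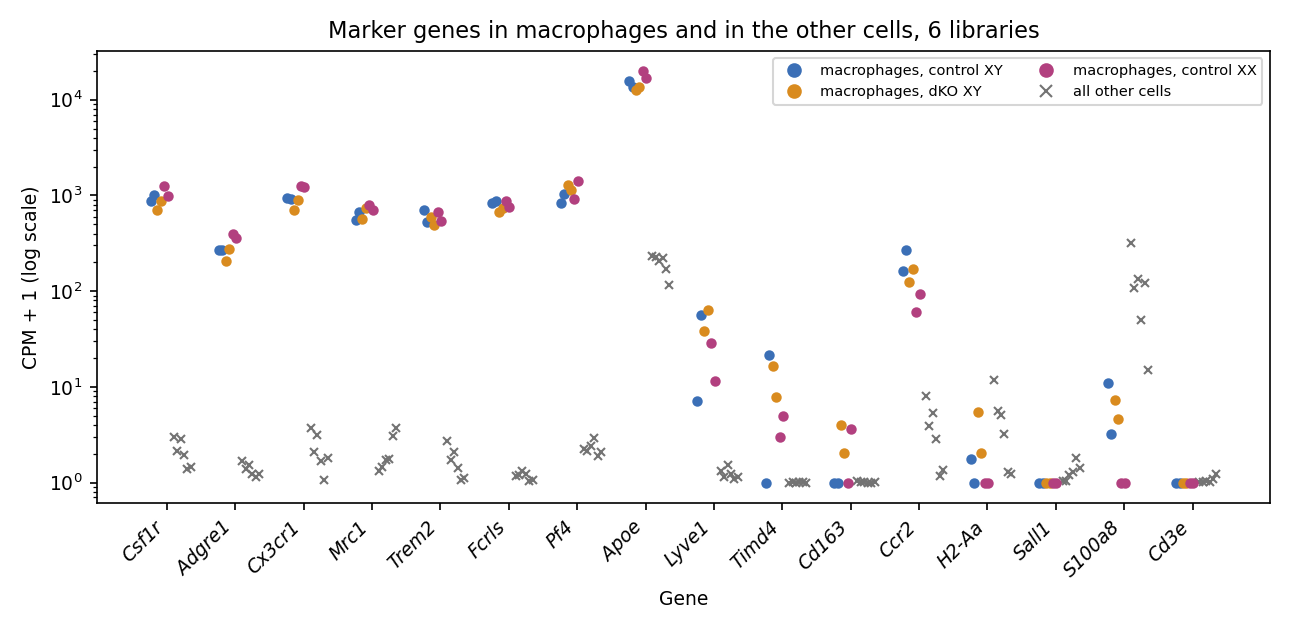
Levels of 16 marker genes (CPM + 1, log scale) in the macrophages of each library (circles, coloured by group) and in the other cells of the same libraries (crosses). *Csf1r* to *Apoe* lie above 200 CPM in the macrophages of all 6 libraries, whereas *Cd163*, *H2-Aa*, *Sall1*, *S100a8* and *Cd3e* stay at or below 9.88 CPM.

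Macrophages were then compared with each other at a fixed depth, after each cell was thinned to 5000 UMIs, which left out no macrophage. *Csf1r* was found in 84.7% to 100% of the macrophages of a library and *Cx3cr1* in 85.7% to 100%, against at most 0.738% and 0.768% of the other cells. *Mrc1* was found in 67.4% to 85.7%, *Adgre1* in 63.3% to 81.8% and *Pf4* in 60.6% to 71.4%. *Folr2*, a folate receptor of fetal resident macrophages, was seen in 17.0% to 30.3%, and *Ccr2*, the receptor that brings monocytes into tissue, in 14.3% to 30.2% of macrophages, against at most 0.0939% and 0.989% of the other cells. *Lyve1* was seen in only 23 and *Timd4* in 12 of the 321 thinned cells. The unthinned shares were higher, at 39.6% to 60.6% for *Folr2*, 18.2% to 39.6% for *Ccr2* and 93.5% to 100% for *Csf1r*.

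Many of the macrophages carried transcripts of dividing cells. *Mki67*, the Ki-67 antigen gene, was seen in 22.6% to 36.4% and *Top2a*, a topoisomerase of mitosis, in 26.1% to 33.3% of thinned macrophages, and their levels lay at 149 to 255 and 197 to 262 CPM. The other cells of the libraries had *Mki67* in 13.1% to 38.8% and *Top2a* in 18.3% to 47.1%. These are shares of cells with a UMI and not counts of cycling cells.

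The spread of levels from cell to cell was described by the ratio of variance to mean, which itself rises with the mean, so that abundant genes rank high. Among 981 genes with a mean of at least 0.5 UMI per thinned macrophage, the median ratio within a library was 1.24. It averaged 34.3 for *Fth1* and 27.5 for *Ftl1*, which encode the ferritin chains that store iron, 30.8 for *Hmox1*, the haem oxygenase that opens the haem ring, and 28.7 for *Apoe*, the apolipoprotein that carries cholesterol. The chemokine genes *Ccl4* (18.8) and *Cxcl2* (14.3) were among the 13 highest, as were mitochondrial genes, *Malat1* and *Tmsb4x*. The ratio varied between libraries, from 3.91 to 54.5 for *Hmox1*, 10.7 to 74.6 for *Fth1*, 10.1 to 54.1 for *Ftl1* and 19.6 to 44.9 for *Apoe*.

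The share of macrophages among cells was highest in dKO XY. They made up 1.20% and 1.23% of the dKO XY cells, 0.675% and 0.619% of the control XY cells and 0.394% and 0.690% of the control XX cells. The dKO XY mean of 1.22% ± 0.0181 (SD, n = 2) was 1.88 times the control XY mean of 0.647% ± 0.0397 and 2.24 times the control XX mean of 0.542% ± 0.209. Both dKO XY libraries lay above all 4 control libraries, and the control XX libraries overlapped those of control XY. An exact two-sided permutation test of 2 libraries against 2 gave p = 0.333 for dKO XY against either control, which is the smallest p this design allows, and p = 1 for control XX against control XY.

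The cell filter moved these shares. It removed more barcodes in dKO XY, where 8151 of 15953 and 5701 of 12454 barcodes passed, than in control XY, where 6818 of 9142 and 8569 of 12570 passed. In control XX 5330 of 10025 and 4781 of 7920 barcodes passed. Over all barcodes without the filter, an alternative added after the data were seen, the mean share was 0.752% ± 0.0184 in dKO XY, 0.595% ± 0.0872 in control XY and 0.453% ± 0.217 in control XX. The exact binomial 95% intervals, which cover counting error only, ran from 0.977% to 1.46% in dKO XY 1.

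**Figure D2:**
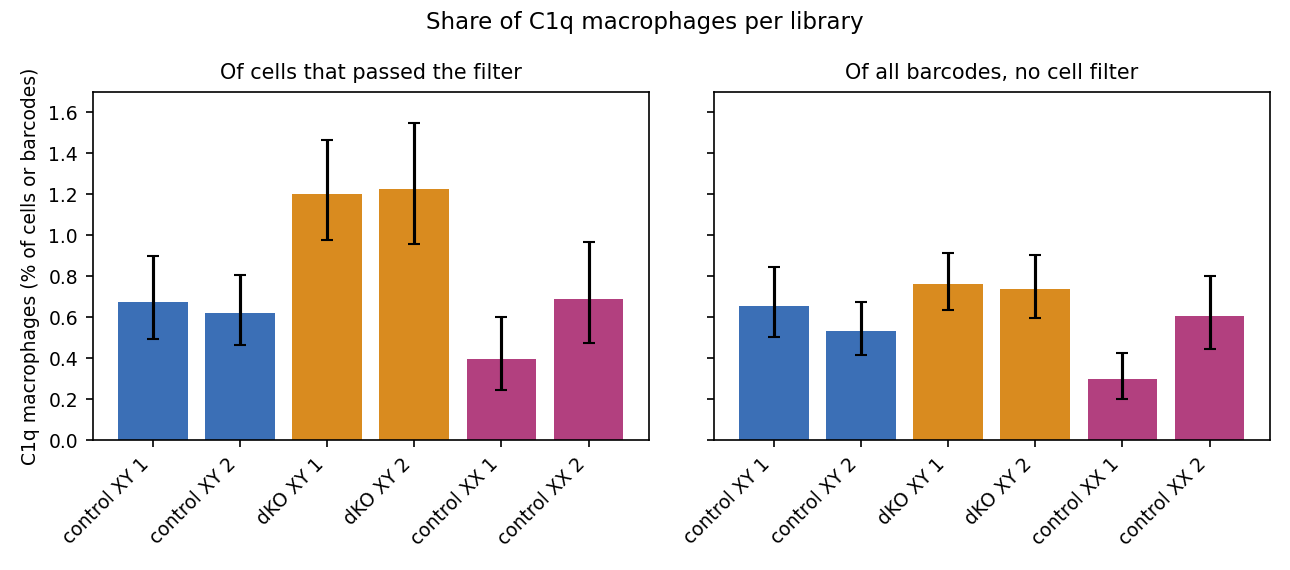
Macrophages as a percentage of cells that passed the filter (left) and of all barcodes (right) in each of the 6 libraries, with exact binomial 95% intervals for counting error. On the left the dKO XY bars stand at 1.20% and 1.23% and the 4 control bars at or below 0.690%, and on the right the distance between the groups is smaller.

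Whether the loss of *Amh* and *Inhbb* changed the macrophages of the XY gonad was asked first. UMIs were summed over the macrophages of each library and 9605 genes entered the quasi-likelihood test of edgeR with Benjamini-Hochberg adjustment. No gene passed an adjusted p of 0.05 between dKO XY and control XY (0% of genes tested), although 552 had an unadjusted p under 0.05, with 217 higher and 335 lower, and DESeq2 called 16. The median half-width of the 95% interval of a log2 fold was 0.61, before any adjustment for the number of genes, and larger folds than this also failed the adjusted threshold. None of the 33 gene lists had a called member, and the median log2 fold of the identity genes was 0.02, of the lysosomal genes -0.04 and of the complement genes 0.01, beside -0.00095 over all genes. Among the other lists, also without a called gene, the medians of erythroid genes (-2.06, 0 of 6 positive), Leydig genes (-1.79, 0 of 5), Sertoli genes (1.62, 5 of 5) and endothelial genes (-1.53, 0 of 2) lay far from 0, as did that of the germ cell genes, of which all 5 tested had a positive log2 fold and 2 had no UMI in a group. Smaller medians were those of G2 and mitosis (0.44, 18 of 20 positive), the ligands and binders of the activin and TGF-β family (-0.61, 0 of 9 positive), interstitial genes (-0.54, 0 of 10), microglia-associated genes (-0.45, 0 of 8), early response genes (-0.39, 3 of 21) and chemokines (-0.28, 6 of 14). Monocyte genes (-0.39, 1 of 4) and class II antigen presentation genes (-0.29, 1 of 3) also had negative medians. The early response genes were low in dKO XY 2 alone of the 4 XY libraries. Single libraries also weighed on other sums. Endothelial genes summed to 35.7 and 355 CPM in control XY, beside 29.7 and 30.2 CPM in dKO XY. Leydig genes summed to 1228 and 2501 CPM in control XY and 883 and 78.5 CPM in dKO XY. Erythroid genes summed to 3047 and 763 CPM in control XY and 577 and 256 CPM in dKO XY. A control XY 1 macrophage had 17.7% erythroid UMIs. Sertoli sums were 44.8 and 57.7 CPM in control XY and 204 and 170 CPM in dKO XY.

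The higher genes with the smallest p-values in this comparison included genes of granulosa, Sertoli and germ cells. *Kctd14*, a gene of granulosa and pre-granulosa cells, lay at 82.8 and 102 CPM in dKO XY and 6.84 and 18.5 CPM in control XY macrophages, with a log2 fold of 2.85 (SE 0.35, edgeR adjusted p = 0.0758). In the other cells *Kctd14* lay at 411 and 594 CPM and 57.4 and 92.8 CPM, the same order at higher levels. *Cst9*, a Sertoli cell gene, had 59 and 64 CPM against 7.6 and 16 CPM (log2 fold 2.39, SE 0.30, edgeR adjusted p = 0.0758), and *Wnt6*, a WNT ligand gene, 57.2 and 49.4 CPM against 13.7 and 12.6 CPM (log2 fold 2.02, SE 0.29, edgeR adjusted p = 0.0758). The germ cell genes *Dppa3* and *Dazl* had log2 folds or bounds of the same sign, with *Dppa3* at 46.8 and 27.6 CPM against 4.56 and 4.44 CPM and *Dazl* at 26.7 and 48.4 CPM against none in control XY, at least 31.8-fold when 3 counts over the group stand for 0.

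On the lower side, *Hao2*, a peroxisomal oxidase gene, had 4.08 and 1.56 CPM in dKO XY and 38.8 and 33.3 CPM in control XY, with a log2 fold of -3.55 (SE 0.42, edgeR adjusted p = 0.0758). *Pdlim3*, an actin-associated protein gene, had 12.2 and 20.8 CPM against 92.7 and 53.2 CPM, and *Prkar2b*, a protein kinase A subunit gene, 53.8 and 28.1 CPM against 147 and 143 CPM. Both *Hao2* and *Prkar2b* were higher in the other cells than in macrophages in all 4 XY libraries. *Prkar2b* changed sign, to a log2 fold of 0.47, without the 5 macrophages that had at least 1% UMIs of other cell types.

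The lower genes also held a lysosomal gene and a target of TGF-β. *Arsb*, listed as arsb, which encodes a lysosomal sulfatase, lay at 35.3 and 44.7 CPM in dKO XY, 102 and 85.7 CPM in control XY and 94.9 and 71.1 CPM in control XX macrophages, against 5.18 to 9.92 CPM in other cells, with a log2 fold of -1.24 (SE 0.20, edgeR adjusted p = 0.145). *Pmepa1*, a gene that TGF-β signalling induces and whose product dampens SMAD activation, lay at 149 and 142 CPM in dKO XY and 325 and 289 CPM in control XY macrophages, beside 168 and 154 CPM and 232 and 224 CPM in the other cells of these groups, with a log2 fold of -1.08 (SE 0.17, edgeR adjusted p = 0.145). Neither gene passed the threshold, with or without any 1 library. Of the genes named above, *Dazl*, *Kctd14*, *Hao2* and *Prkar2b* were called without dKO XY 1, with edgeR adjusted p of 0.00659, 0.0208, 0.0234 and 0.00753 in this order, although the single dKO XY library that remained was assumed to vary like those of the other groups. *Dazl* and *Kctd14* were also called without control XY 1, and *Kctd14* without control XY 2.

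Control ovary and control testis macrophages differed more. In control XX against control XY macrophages 243 genes were called (2.53% of 9605), 33 of them higher (0.344%) and 210 lower (2.19%) in control XX, and 1599 had an unadjusted p under 0.05. The 2 directions held different kinds of gene. Of the 33 higher genes, 26 were at least 2 times as abundant in control XX macrophages as in the other cells of control XX, compared with 17.1% of all genes tested. Of the 210 lower genes, 205 were less abundant in control XY macrophages than in the other cells of control XY, only 3 were at least 2 times as abundant, and 149 (71.0%) were also called lower in the other cells. Over all genes tested, 58.6% were less abundant in macrophages and 17.2% were called in the same direction in the other cells.

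**Figure D3:**
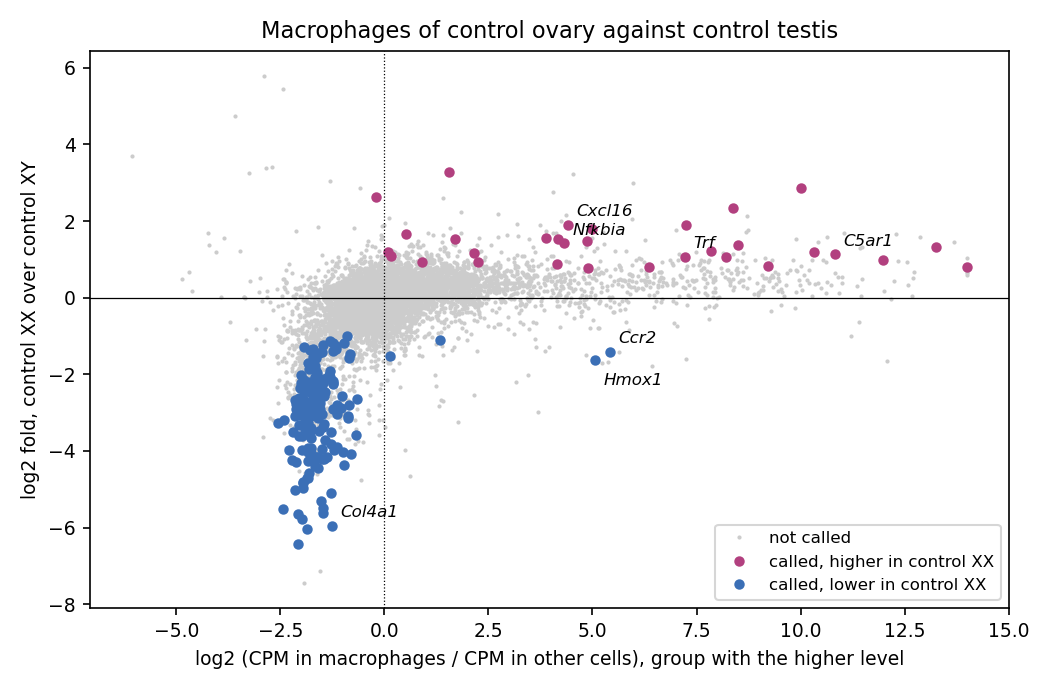
Log2 fold of control XX over control XY macrophages against the log2 ratio of macrophages to other cells in the group with the higher level, for the genes with UMIs in both groups (ratios set to at least -8 and at most 14 on the log2 scale). Genes called higher in control XX lie mostly on the right, among genes of macrophages, and genes called lower lie mostly on the left, apart from *Hmox1*, *Ccr2* and *Ly6e*.

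The genes that rose in control XX macrophages included an inhibitor and a kinase of NF-κB signalling. *Nfkbia*, on chromosome 12 from 55489410 to 55492647 on the minus strand, encodes IκBα, which NF-κB itself induces and which returns it to the cytoplasm. It lay at 1908 and 1468 CPM in control XX, 597 and 700.0 CPM in control XY and 622 and 317 CPM in dKO XY. Both control XX libraries were above all 4 XY libraries, and the log2 fold over control XY was 1.43 (SE 0.30, edgeR adjusted p = 0.043). *Nfkbia* was the 1 gene called among 21 genes of dissociation and early response tested, a list whose summed level was 24487 and 19488 CPM in control XX, 17571 and 17008 CPM in control XY and 18548 and 7809 CPM in dKO XY. The part of tissue handling in the rise of *Nfkbia* was not tested. *Map3k8*, a kinase gene upstream of NF-κB and ERK, lay at 154 and 108 CPM in control XX, 34.2 and 42.9 CPM in control XY and 62.7 and 32.2 CPM in dKO XY, with a log2 fold of 1.80 (SE 0.34, edgeR adjusted p = 0.0354). *Gadd45b*, a stress gene that NF-κB induces, rose by a log2 fold of 1.53 (SE 0.32, edgeR adjusted p = 0.0438), from 52.4 and 117 CPM in control XY to 279 and 196 CPM in control XX. *Bcl2a1b*, a survival gene of the BCL2 family whose near-identical paralogs make its counts uncertain, lay at 265 and 329 CPM in control XX, 144 and 104 CPM in control XY and 116 and 87.9 CPM in dKO XY (log2 fold 1.32, SE 0.23, edgeR adjusted p = 0.0274).

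The promoters of *Nfkbia* (chr12:55492598-55492897, minus strand) and *Bcl2a1b* (chr9:89199023-89199322, plus strand) are shown because these genes rose together and hold the motifs searched. Capitals mark, in *Nfkbia*, a κB motif, the site of NF-κB. In *Bcl2a1b* they mark TGAATCA, a match to the letters TGANTCA searched for AP-1 with any base at N. The PU.1 letters follow it and do not overlap it.
*Nfkbia*: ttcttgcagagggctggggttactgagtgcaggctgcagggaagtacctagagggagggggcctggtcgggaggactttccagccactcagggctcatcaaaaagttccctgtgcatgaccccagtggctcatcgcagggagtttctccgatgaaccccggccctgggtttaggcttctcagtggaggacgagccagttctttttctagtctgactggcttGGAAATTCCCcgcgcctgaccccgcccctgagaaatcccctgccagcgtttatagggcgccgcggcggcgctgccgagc
*Bcl2a1b*: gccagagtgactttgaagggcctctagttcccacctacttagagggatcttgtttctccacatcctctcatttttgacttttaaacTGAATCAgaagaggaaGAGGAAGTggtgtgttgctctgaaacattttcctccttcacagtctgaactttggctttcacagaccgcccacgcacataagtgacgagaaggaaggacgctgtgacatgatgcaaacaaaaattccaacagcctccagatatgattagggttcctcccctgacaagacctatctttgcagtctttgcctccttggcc
The κB motif, searched in 1 form on both strands, occurred in 2 of the 22 promoters found for genes higher in control XX, in 0 of 198 for genes lower there and in 0.411% of all 32851 promoters. The AP-1 letters, with any base at N, occurred in 3 of 22, 10 of 198 and 7.81%, and the PU.1 letters in 2 of 22, 3 of 198 and 3.20%. Other forms of these motifs were not searched.

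Of 14 chemokine genes tested, 2 rose and 1 fell in control XX, where 0.344% of all genes rose and 2.19% fell, shares against which the counts of the lists that follow are also to be read. *Cxcl16*, on chromosome 11 from 70453983 to 70459984 on the minus strand, encodes a membrane-bound chemokine that also takes up oxidized lipid, and lay at 186 and 103 CPM in control XX, 41.0 and 37.0 CPM in control XY and 49.7 and 46.8 CPM in dKO XY. Its log2 fold was 1.90 (SE 0.27, edgeR adjusted p = 0.016). *Ccl9* rose by a log2 fold of 1.19 (SE 0.25, edgeR adjusted p = 0.0446), from 77.5 and 138 CPM in control XY to 249 and 225 CPM in control XX. These were the 2 that rose, and neither was called without control XX 1, while *Cxcl12* fell. A positive log2 fold was found for 13 of the 14, with a median of 1.26 beside -0.02 over all genes. *Ccl4*, which was not called, lay at 3288 and 3439.9 CPM in control XX, 1118 and 1671 CPM in control XY and 1389.9 and 532 CPM in dKO XY, and *Ccl3* at 1426 and 1686 CPM in control XX, 820.2 and 861 CPM in control XY and 889.6 and 397 CPM in dKO XY. The chemokine levels of dKO XY 2, the library with low early response genes, were below those of dKO XY 1 for *Ccl2*, *Ccl3*, *Ccl4* and *Cxcl2*. The part of the early response in these levels was not tested.

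Receptors of complement and handlers of iron and lipid followed. *C5ar1*, on chromosome 7 from 16246743 to 16259540 on the minus strand, the receptor for the complement fragment C5a, lay at 204 and 244 CPM in control XX, 108 and 103 CPM in control XY and 117 and 105 CPM in dKO XY, with a log2 fold of 1.14 (SE 0.18, edgeR adjusted p = 0.0204). It was the single gene called among 10 complement genes tested. *Trf*, transferrin, the iron carrier of plasma, lay at 617 and 534 CPM in control XX, 312 and 255 CPM in control XY and 246 and 336 CPM in dKO XY, with a log2 fold of 1.07 (SE 0.20, edgeR adjusted p = 0.0354). *Abcg1*, which exports cholesterol to lipoprotein particles, lay at 59.3 and 52.7 CPM in control XX, 13.7 and 25.1 CPM in control XY and 32.3 and 26.5 CPM in dKO XY, with a log2 fold of 1.57 (SE 0.32, edgeR adjusted p = 0.0392). The level of *Apoe*, at 19789 and 16791 CPM in control XX and 15748 and 13439 CPM in control XY, did not pass the test.

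*Dok2*, an adaptor that restrains tyrosine kinase signalling in myeloid cells, rose from 39.5 and 38.4 CPM in control XY to 75.1 and 129 CPM in control XX, a log2 fold of 1.48 (SE 0.27, edgeR adjusted p = 0.0301). The unnamed gene *Gm26522* rose from 68.4 and 61.4 to 186 and 142 CPM, a log2 fold of 1.38 (SE 0.19, edgeR adjusted p = 0.0147). *Kdm5c*, an X-linked histone demethylase gene that escapes X inactivation, lay at 51.4 and 44.8 CPM in control XX, 22.0 and 21.4 CPM in control XY and 28.9 and 32.2 CPM in dKO XY, and its log2 fold was 1.18 (SE 0.24, edgeR adjusted p = 0.0417). With *Xist* it made 2 of 7 genes of this kind that were called. *C1qa*, at 3649.8 and 3024 CPM in control XX and 2083 and 1851 CPM in control XY, is a gene of the rule and is given as a description.

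A pair of macrophage genes fell in control XX. *Hmox1*, on chromosome 8 from 75093621 to 75100589 on the plus strand, was at 306 and 356 CPM in control XX, 1283 and 824 CPM in control XY and 1319 and 861 CPM in dKO XY, so that both control XX libraries lay below all 4 XY libraries. Its log2 fold was -1.62 (SE 0.28, edgeR adjusted p = 0.0274), a 3.07-fold lower level, while in the other cells it lay at 30.5 to 42.7 CPM in all groups. Ferritin did not follow it, with *Ftl1* at 10666 and 10866 CPM in control XX, 10479 and 8445 CPM in control XY and 11354 and 9791 CPM in dKO XY, and of 13 iron genes tested *Hmox1* and *Trf* were the 2 called. *Ccr2*, on chromosome 9 from 124101950 to 124113557 on the plus strand, was at 59.3 and 92.2 CPM in control XX, 160.4 and 267 CPM in control XY and 123 and 168 CPM in dKO XY, with a log2 fold of -1.41 (SE 0.31, edgeR adjusted p = 0.0479). Beside it, *Plac8*, another gene of monocytes, lay at 9.89 and 38.2 CPM in control XX, 56.3 and 260.2 CPM in control XY and 104 and 116 CPM in dKO XY without being called. *Vcan*, another gene of the monocyte list, fell but was more abundant in the other cells of control XY than in its macrophages. *Ly6e*, an interferon-induced surface protein gene, fell by a log2 fold of -1.10 (SE 0.22, edgeR adjusted p = 0.0407), the 1 of 21 interferon genes that was called.

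**Figure D4:**
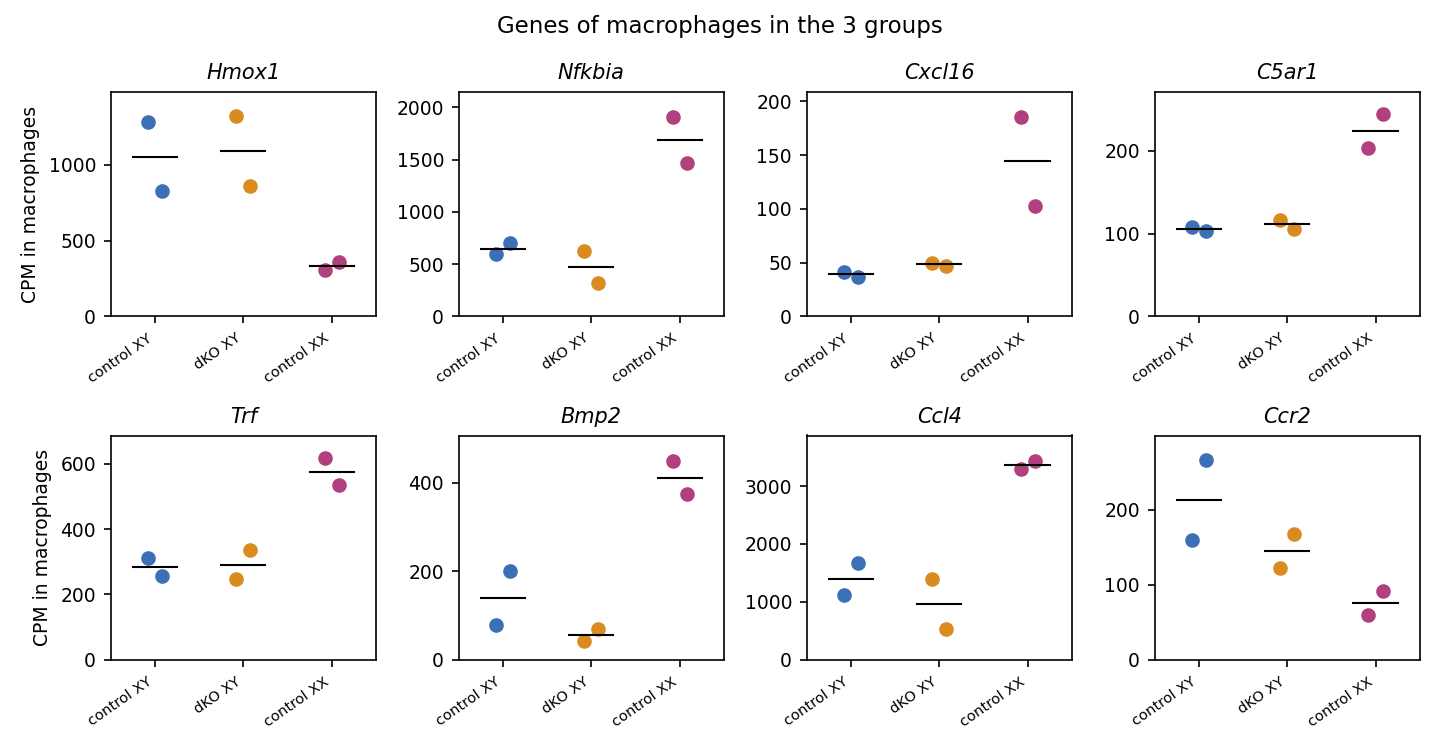
Levels of 8 genes in macrophages (CPM, axes from 0), with 1 point per library and a line at the mean of the 2 libraries of a group. *Nfkbia*, *Cxcl16*, *C5ar1*, *Trf*, *Bmp2* and *Ccl4* are highest in both control XX libraries, and *Hmox1* and *Ccr2* are lowest there.

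The other genes that fell were those of Leydig, interstitial and Sertoli cells. *Cyp17a1* and *Cyp11a1*, which encode steroidogenic enzymes of Leydig cells, lay at 683 and 1055 CPM and 316 and 919.5 CPM in control XY macrophages and had no UMI in control XX macrophages, at least 368-fold and 262-fold lower against a floor of 3 counts over the group. *Cxcl12*, a chemokine gene of stromal cells, lay at 215 and 195 CPM in control XY and had no UMI in control XX, at least 86.4-fold lower. *Ren1* (at least 173-fold), *Pdlim3* (30.7-fold), *Osr2* (16-fold) and *Igfbp3* (14.7-fold) were also at 0 in control XX. *Inhba*, the activin A subunit gene of interstitial cells, lay at 101 and 54.0 CPM in control XY and 0 and 1.32 CPM in control XX, with a log2 fold of -6.42 (SE 0.91, edgeR adjusted p = 0.016). *Pdgfra*, *Col1a2* and *Col3a1* (interstitial), *Cst9* (Sertoli), *Vcan*, *Inha* and *Ltbp3* fell as well.

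Transcripts of other cell types as a whole differed between the groups. The summed level of 64 markers of Sertoli, granulosa, interstitial, Leydig, germ, endothelial, pericyte and epithelial cells, leaving out *Runx1* and *Bmp2*, which macrophages also use, was 3602 and 4404 CPM in control XY macrophages, 2334 and 2000 CPM in dKO XY and 227 and 817 CPM in control XX. Relative to the other cells of the same library, the control XY macrophages reached 24.8% and 30.7%, the dKO XY macrophages 24.3% and 18.9% and the control XX macrophages 3.33% and 9.89%. In the median macrophage these markers took between 0.0343% and 0.0513% of UMIs in the 4 XY libraries and 0.0187% and 0.0172% in control XX. Without the 5 macrophages that had at least 1% of such UMIs, the relative level of control XY was 14.8% and 14.9%, that of dKO XY 16.6% and 18.9% and that of control XX 3.33% and 9.89%. In that subset 23 genes were called higher and 149 lower in control XX, and 21 and 145 of these were among the genes called with all macrophages. The part of these transcripts in the genes that fell was not tested.

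**Figure D5:**
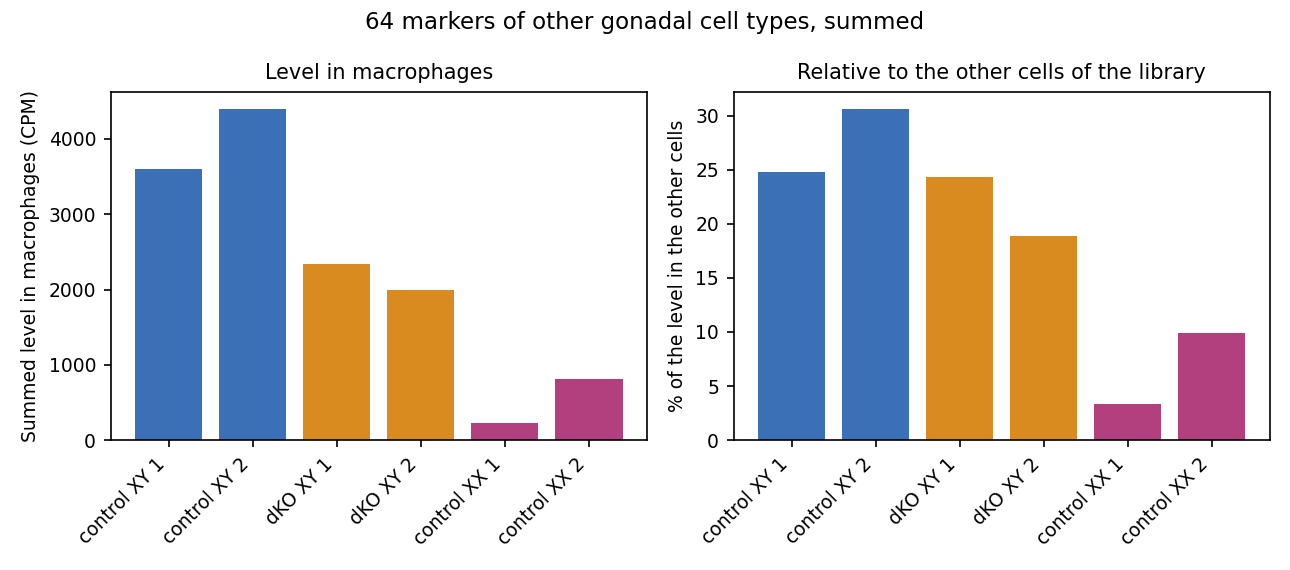
Summed level of 64 marker genes of other gonadal cell types in the macrophages of each library, in CPM (left) and as a percentage of the level in the other cells of the same library (right). The 4 XY libraries lie between 18.9% and 30.7% on the right, and control XX at 3.33% and 9.89%.

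These calls depended on single libraries. Where 1 library of a group was left out, the remaining one was assumed to vary like the libraries of the other groups, and the test had fewer degrees of freedom. Without control XX 1, which held 21 macrophages, 2 genes were called higher and 5 lower in control XX. Without control XX 2 the counts were 16 and 90, and without control XY 1 they were 8 and 139. Of the 8 genes with the largest rise among those whose mean log2 CPM reached 5, *Xist* left out, only *Dok2* was called without control XX 1, whereas *Cxcl12* was called whichever library was left out, with a highest adjusted p of 0.0243 by edgeR. The directions of the named genes were kept throughout, and the highest adjusted p by edgeR was 0.0648 for *Cxcl16*, 0.0767 for *C5ar1*, 0.139 for *Hmox1* and 0.176 for *Nfkbia*.

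Several lists of macrophage genes held no called gene between control XX and control XY, where 2.53% of all genes were called, a share at which lists of this size may hold none. None of the 16 identity genes, 14 genes of fetal resident macrophages, 24 lysosomal genes, 16 genes of engulfment or 20 myeloid transcription factors tested was called. The identity genes nonetheless all had a positive log2 fold, with a median of 0.46. Among 20 genes of G2 and mitosis, 19 had a positive log2 fold, with a median of 0.70, and among 20 genes of S phase 4 did, with a median of -0.31, without a called gene in either list. The summed level of the G2 and mitosis genes was 2416 and 2283 CPM in control XX, 1556 and 1673.5 CPM in control XY and 2349 and 1876 CPM in dKO XY.

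The gonad of dKO XY embryos was next compared with the control ovary, a comparison that shares the control XX libraries with the one above. Here 147 genes were called (1.53% of 9605), 105 of them higher (1.09%) and 42 lower (0.437%) in dKO XY. Genes at least 2 times as abundant in macrophages as in the other cells, in the group with the higher level, were counted. They were 37 of the 42 lower genes, 1 of the 105 higher genes and 16.8% of all genes tested. *Bmp2*, on chromosome 2 from 133552159 to 133562885 on the plus strand, a ligand of the TGF-β family that granulosa cells also make, lay at 41.9 and 70.7 CPM in dKO XY, 449 and 374 CPM in control XX and 79.8 and 199.6 CPM in control XY. Its log2 fold in dKO XY was -2.93 (SE 0.39, edgeR adjusted p = 0.0137), a 7.64-fold lower level. *Nfkbia* fell by a log2 fold of -1.89 (SE 0.30, edgeR adjusted p = 0.0227). *Nfkbiz*, an atypical IκB that acts in the nucleus, lay at 261 and 124 CPM in dKO XY, 850.2 and 723 CPM in control XX and 268 and 497 CPM in control XY, with a log2 fold of -2.07 (SE 0.37, edgeR adjusted p = 0.0334). *Cd14*, the co-receptor of endotoxin, lay at 108 and 67.1 CPM in dKO XY, 184 and 491 CPM in control XX and 197 and 212 CPM in control XY, with a log2 fold of -2.02 (SE 0.40, edgeR adjusted p = 0.0475).

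Other immune genes lower in dKO XY than in control XX macrophages included *Cxcl10*, an interferon-induced chemokine gene, with 46.4 and 30.2 against 94.9 and 361 CPM (log2 fold -2.65, SE 0.54, edgeR adjusted p = 0.0492), and *Lilr4b*, an inhibitory receptor gene, with 22.6 and 20.8 against 71.2 and 87.0 CPM (log2 fold -1.92, SE 0.24, edgeR adjusted p = 0.0102). *Phlda1* and *Gadd45b* fell by log2 folds of -2.15 (SE 0.42, edgeR adjusted p = 0.0435) and -1.91 (SE 0.32, edgeR adjusted p = 0.0261). The complement receptor genes *C5ar1* and *C3ar1* both fell, by log2 folds of -1.07 (SE 0.17, edgeR adjusted p = 0.0238) and -0.94 (SE 0.17, edgeR adjusted p = 0.0317), with *C3ar1* at 343 and 339.6 CPM in dKO XY, 690.0 and 578 CPM in control XX and 388 and 433 CPM in control XY. *Trf*, *Cxcl16* and *Hpgd*, which degrades prostaglandins, fell by log2 folds of -1.04, -1.59 and -0.89. Without dKO XY 2, the library with low early response genes, 11 genes were called lower and 100 higher, of which 10 and 73 were among those called with all libraries, and *Bmp2*, *Nfkbia* and *Lilr4b* were called while the other lower genes named here were not.

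Higher in dKO XY was *Hmox1*, with a log2 fold of 1.67 (SE 0.28, edgeR adjusted p = 0.0261), the 1 gene of this direction that was at least 2 times as abundant in macrophages as in other cells. The genes with the largest rise were again more abundant in the other cells. *Col4a1*, a collagen of basement membranes, lay at 246 and 335 CPM in dKO XY and 7.91 and 3.95 CPM in control XX macrophages, against 194 to 893 CPM in other cells, with a log2 fold of 5.62 (SE 0.33, edgeR adjusted p = 0.000289). *Cxcl12*, *Ptgds*, *Igfbp3* and *Osr2* were at 0 in control XX, at least 38.4-fold, 34.5-fold, 27.1-fold and 17.5-fold lower than in dKO XY. *Defb19* and *Stox2* rose by log2 folds of 5.88 (SE 0.67, edgeR adjusted p = 0.00646) and 5.53 (SE 0.64, edgeR adjusted p = 0.00646), *Inhba* by 5.81 (SE 0.97, edgeR adjusted p = 0.0261), and the Sertoli genes *Cst9*, *Aard* and *Sox9* were called higher, as was the germ cell gene *Dppa5a*. The levels of other cell type markers given above, 24.3% and 18.9% against 3.33% and 9.89%, apply here too, and their part was not tested. Without control XX 1, 9 genes were called higher and 6 lower, and without control XX 2, 45 and 19. *Cxcl12*, *Igfbp3*, *Col4a1* and *Cst9* were called whichever library was left out.

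AMH and the activins signal through pairs of type I and type II receptor kinases that phosphorylate SMAD proteins, with AMH using the dedicated receptor AMHR2 and activins mainly ACVR2A, ACVR2B and ACVR1B. In macrophages *Amhr2* lay at 1.52 to 20.4 CPM, below the 15.4 to 228 CPM of the other cells in every library. *Acvr1b* lay at 5.27 to 11.9 CPM, *Acvr2a* at 0 to 7.39 CPM and *Acvr2b* at 1.32 to 10.4 CPM. The TGF-β receptor genes were more regularly found, with *Tgfbr1* at 69.4 to 164 and *Tgfbr2* at 60.8 to 79.1 CPM, both above the other cells in every library. Of 21 receptor, SMAD and target genes tested none was called in dKO XY against control XY (median log2 fold -0.09), where 0% of all genes were called, or in control XX against control XY (median -0.25), where 2.53% were, so counts of 0 are near these shares. Between dKO XY and control XX, where 1.53% of all genes were called, 1 of the 21 was called. This was *Skil*, a SMAD corepressor gene, with 145 and 106 against 291 and 259.5 CPM and a log2 fold of -1.18 (SE 0.21, edgeR adjusted p = 0.0334).

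Among the ligands and binders of the family, *Tgfb1* was more abundant in macrophages than in other cells in every library, at 171 to 209.6 CPM against 14.9 to 29.6 CPM in other cells. *Bmp2* was highest in the control XX macrophages, as given above, with 61.6 and 27.9 CPM in the other cells of control XX. *Inhbb* lay at 0 to 12.6 CPM and the activin antagonist gene *Fst* at 0 to 17.8 CPM in macrophages. Of 9 ligands and binders tested 3 fell in control XX against control XY, *Inhba*, *Inha* and *Ltbp3*, each more abundant in the other cells of control XY than in its macrophages. Of the hormone receptors, the estrogen receptor gene *Esr1* lay at 1.32 to 5.94 CPM and the glucocorticoid receptor gene *Nr3c1* at 47.5 to 66.9 CPM.

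The log2 fold between groups in macrophages was tested against that in all other cells of the same libraries, with the library as a block. Each gene was given 1 spread for both kinds of sum, although the other cells numbered 39029 and the macrophages 321. These p-values therefore do not measure the spread between libraries of macrophages alone. An SE here can be smaller than that of the log2 fold in macrophages. The other cells were a mixture whose make-up differed between groups, so the test cannot show that a change was particular to macrophages. Their Leydig gene sum was 6521 and 6770 CPM in control XY and 54.7 and 23.3 CPM in control XX. They also held 99 and 61 cells of control XY and 7 and 17 of control XX with both adaptors and no C1q UMI. For dKO XY against control XY the difference between the 2 log2 folds was called for 92 of 17731 genes (0.519%), positive for 20 (0.113%) and negative for 72 (0.406%). For control XX against control XY it was called for 1292 genes (7.29%), of which 463 were positive (2.61%) and 829 negative (4.68%). For dKO XY against control XX the 1152 genes (6.5%) were positive for 761 (4.29%) and negative for 391 (2.21%). For *Hmox1* the log2 fold of control XX over control XY in macrophages minus that in other cells was -2.02 (SE 0.18, edgeR adjusted p = 2.23e-09). It was 3.24 (SE 0.40, edgeR adjusted p = 1.52e-06) for *Cxcl16*, 0.97 (SE 0.16, edgeR adjusted p = 0.000118) for *Nfkbia* and 2.68 (SE 0.52, edgeR adjusted p = 0.000717) for *Ccr2*, so *Ccr2* was lower by more in the other cells. For *Trf* the difference was 0.11 (SE 0.22, edgeR adjusted p = 0.967) and for *Gadd45b* 0.39 (SE 0.30, edgeR adjusted p = 0.638), neither past the threshold. Between dKO XY and control XX it was -2.04 (SE 0.31, edgeR adjusted p = 4.51e-05) for *Bmp2*, -2.84 (SE 0.37, edgeR adjusted p = 4.03e-06) for *C3ar1* and 3.83 (SE 0.27, edgeR adjusted p = 3.02e-11) for *Col4a1*. The log2 fold of *C3ar1* in macrophages alone was -0.94, and the other cells held at most 0.584 CPM of it, near the floor.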

How the data were processed

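Single-cell RNA-seq of dissociated E15.5 gonads (10x Genomics) was analysed in 6 libraries. The authors deposited raw UMI counts as a matrix of genes by barcodes for each library, made with Cell Ranger on mm10 with a correction for barcode swapping, and Seurat 4.0 is named in the submitters' processing notes. A cell needed over 2500 genes but under 9000, mitochondrial UMIs below 25% and *Hbb* UMIs below 20%. No doublet was removed in the main analysis. The threshold that Scrublet (scanpy 1.11.5) set by itself marked 71 cells in control XX 1 and 2 in control XX 2. It marked 0 and 0 cells in dKO XY and 1 and 4 in control XY. This threshold was not used, and dropping the top 8% of scores was an alternative.

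The members and lists were chosen with earlier results of these data known. UMIs of members were summed per library and tested with edgeR 4.0.16 (R 4.3.3, limma 3.58.1): filterByExpr, TMM, quasi-likelihood fit over all 6 libraries, Benjamini-Hochberg adjusted p under 0.05. Difference from the other cells used a fit with library as a block. Shares of cells were compared with an exact permutation test (scipy 1.17.1), with exact binomial 95% intervals. DESeq2 1.42.0 was an alternative. The scripts were tested on simulated data.

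Named genes were, per comparison, the 8 called genes of largest rise and of largest fall whose mean log2 CPM reached 5, or the 5 of smallest p where fewer than 5 were called, plus up to 6 called members and the 3 most abundant members of each list. Other genes were named for their role after their values were seen. Coordinates are from GENCODE M21 (GRCm38), and promoters are RefSeq's (GRCm38.p6). CPM is not divided by transcript length, so levels are compared between samples and not between genes. Some genes of the lists are not reported here.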

Additional observations from a re-analysis of the deposited data

Results flagged for a closer look

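The genes given here changed between groups in macrophages and differed, in the test with library as a block, from the change in the other cells of the same libraries. Those other cells were a mixture whose make-up differed between groups, and the p-values carry the limits given above for this test. Values are the log2 fold in macrophages minus that in the other cells. For control XX against control XY the difference was 3.24 (SE 0.40, edgeR adjusted p = 1.52e-06) for *Cxcl16* and 0.97 (SE 0.16, edgeR adjusted p = 0.000118) for *Nfkbia*. For dKO XY against control XX it was -2.04 (SE 0.31, edgeR adjusted p = 4.51e-05) for *Bmp2*, -1.68 (SE 0.28, edgeR adjusted p = 0.000128) for *Phlda1*, -0.92 (SE 0.18, edgeR adjusted p = 0.000785) for *Nfkbiz* and -1.48 (SE 0.16, edgeR adjusted p = 2.42e-07) for *Nfkbia*. For the genes that were more abundant in the other cells it was 2.84 (SE 0.56, edgeR adjusted p = 0.00225) for *Defb19*, 3.83 (SE 0.27, edgeR adjusted p = 3.02e-11) for *Col4a1* and 3.03 (SE 0.82, edgeR adjusted p = 0.0307) for *Stox2*. The summed markers of other cell types in macrophages moved the same way as these 3 genes, at 24.3% and 18.9% of the level in other cells in dKO XY against 3.33% and 9.89% in control XX, and their part was not tested. The test for a single outlying value needs at least 4 samples in a group and was not run.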

How the results depend on the processing

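The counts of called genes moved with the settings. For dKO XY against control XY (0 called), they were 16 with at least 5 C1q UMIs, 16 with DESeq2, 246 without the filter on low counts, 19 without the highest doublet scores and 0 to 18 when 1 library was left out. For control XX against control XY (243 called), they were 101, 951 without the filter on low counts, 43 without the highest doublet scores and 7 to 305, and for dKO XY against control XX (147 called) 93, 227 with DESeq2, 851, 26 and 15 to 204. The alternative without the highest doublet scores held 5 libraries, since it left no macrophage in control XX 1. The difference from other cells was called for 38 genes with DESeq2, 245 without the filter and 54 to 251 with a library left out for dKO XY against control XY (92), for 828 with DESeq2 and 912 to 1349 with a library left out for control XX against control XY (1292), and for 649 and 683 to 1373 for dKO XY against control XX (1152). The mean share of macrophages in dKO XY was 1.28% with at least 5 and 1.17% with at least 20 C1q UMIs, 1.09% without the highest doublet scores and 0.752% over all barcodes, and in control XY 0.592% with at least 20 C1q UMIs and 0.595% over all barcodes. *Prkar2b* between dKO XY and control XY turned to a log2 fold of 0.17 without the highest doublet scores and to 0.47 without macrophages holding UMIs of other cell types. The median share of macrophages with a UMI of a marker was 22.5% at 5000 UMIs per cell and 44.6% unthinned. The cause of these shifts was not tested.

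Over all genes tested, libraries with the same number did not deviate together (r = -0.0258, -0.0390 and -0.0819). This cannot exclude a pairing that touches few genes. With the replicate block 34 genes were called for control XX against control XY, 21 for dKO XY against control XX and 0 for dKO XY against control XY. Between 21 and 98 macrophages per library set the precision of every level.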
